A study of Caenorhabditis elegans with 24 samples.

Results

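The glutathione S-transferase family of the nematode *Caenorhabditis elegans* was followed here through repeated hypoxia. Members were set by a rule on gene names, chosen with earlier results of these data known. They are every gene of the count table whose WBcel235 name begins with gst- or gsto-, together with *gcs-1* and *gss-1*. These 2 encode the enzymes that make glutathione. The rule gave 49 members of 46926 genes, of which 44 are gst genes, 3 are gsto genes and 2 are the synthesis enzymes.

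Glutathione S-transferases join the small thiol peptide glutathione to reactive molecules, among them products of oxidized lipids, so that these can be carried out of the cell. Glutathione is built by glutamate-cysteine ligase (*gcs-1*), the rate-limiting step, and glutathione synthetase (*gss-1*). In *C. elegans* the family is expanded, with most members in a nematode class related to the sigma class of other animals, and the transcription factor SKN-1 drives many of its genes in the intestine. The gsto genes belong to the omega class.

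The RNA came from whole wild-type N2 worms of 8 groups with 3 biological replicates each, 24 libraries in all. In each of 4 successive generations, called exposures 1 to 4 here, synchronized worms at the last larval stage (L4) either stayed at atmospheric oxygen (normoxia) or were held at 0.1% oxygen for 16 hours (hypoxia). Worms were grown on OP50 bacteria at 20 °C, and the hypoxia worms were moved back to normal oxygen after the 16 hours. Worms for RNA were collected after the exposure. Progeny at the L4 stage were exposed in turn, so that the hypoxia worms of exposures 2 to 4 had exposed ancestors. The question is how the response to hypoxia differs between a first and a repeated exposure. All groups carry the same genotype, each library pools many whole worms with their germline, and the number of exposures cannot be told apart from the culture of that generation. In whole worms, fewer cells of a type and less RNA per cell cannot be told apart. The stage that each group had reached when collected is not stated, and a difference in stage between hypoxia and normoxia was not tested. The p-values set a difference against the spread between the 3 samples of a group, an estimate partly shared between genes.

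Library totals lay between 26862487 and 46228496 counts, with a median of 33517710. The family took between 0.0523% and 0.124% of a library's counts. Ribosomal RNA took up to 17.5% of the counts, in replicate 1 of exposure 4 hypoxia. By the chi-square of counts per gene between replicates, that library lay furthest from its group, with 604 and 630. Replicates 2 and 3 of that group differed by 7.2, and the largest value within a group of exposure 1 was 193. The mean correlation of that library with its fellow replicates across genes was 0.993. In exposure 1, replicate 1 of normoxia and replicate 2 of hypoxia stood apart from the other replicates of their groups, with a mean correlation across genes of 0.976 and 0.965, and the spread between replicates (the biological coefficient of variation) was 0.235, against 0.101, 0.160 and 0.128 in exposures 2 to 4. A single fit of all 24 libraries, used for differences between exposures, had 0.158, below exposure 1 and above exposures 2 and 4. Its p therefore tends to be smaller in exposure 1, and larger in exposures 2 and 4, than in a fit of that exposure alone. The label of hypoxia was checked on 6 genes known to be induced by hypoxia in worms, of which 2, 6, 3 and 3 rose in exposures 1 to 4. The collagen prolyl hydroxylase *phy-2* and *F22B5.4* rose in all 4, *phy-2* by 3.34, 5.13, 3.03 and 2.49 and *F22B5.4* by 4.17, 4.35, 2.44 and 4.06 on the log2 scale in exposures 1 to 4. Of the others, *cysl-2* was called up in exposures 2 to 4, and *egl-9*, *nhr-57* and *rhy-1* were called up in exposure 2. In exposure 4 *rhy-1* fell (−1.60, edgeR adjusted p = 0.0081), and *nhr-57* and *egl-9* had −0.71 and −0.13, neither called.

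Levels are given as CPM, the count of a gene scaled by the normalized size of its library, on a single scale over all 24 libraries. Levels of different genes are compared only after division by the summed exon length in kilobases. On that scale *gst-1*, a pi-class member, was the highest with a mean of 250.7 CPM per kilobase over the 24 libraries (range 95.7 to 509), followed by *gst-7* with 180.8 (124 to 286). Next came *gst-10* and *gst-13*, both with a mean of 74.5, then *gst-27* with 47.9, *gst-36* with 44.4, and *gcs-1* and *gss-1* with 37.0 each. The order within the pair *gst-10* and *gst-13*, and within the pair *gcs-1* and *gss-1*, lies far inside the range over libraries. Together *gst-1* (22.2%) and *gst-7* (16.0%) supplied more of the family's counts than any other pair of members. The range over libraries differed greatly between genes. For *gcs-1* the highest library was 1.47 times the lowest, for *gst-7* 2.30 times, for *gst-1* 5.32 times, for *gst-10* 11.6 times, for *gst-38* 13.2 times and for *gsto-1* 18.5 times.

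**Figure D1:**
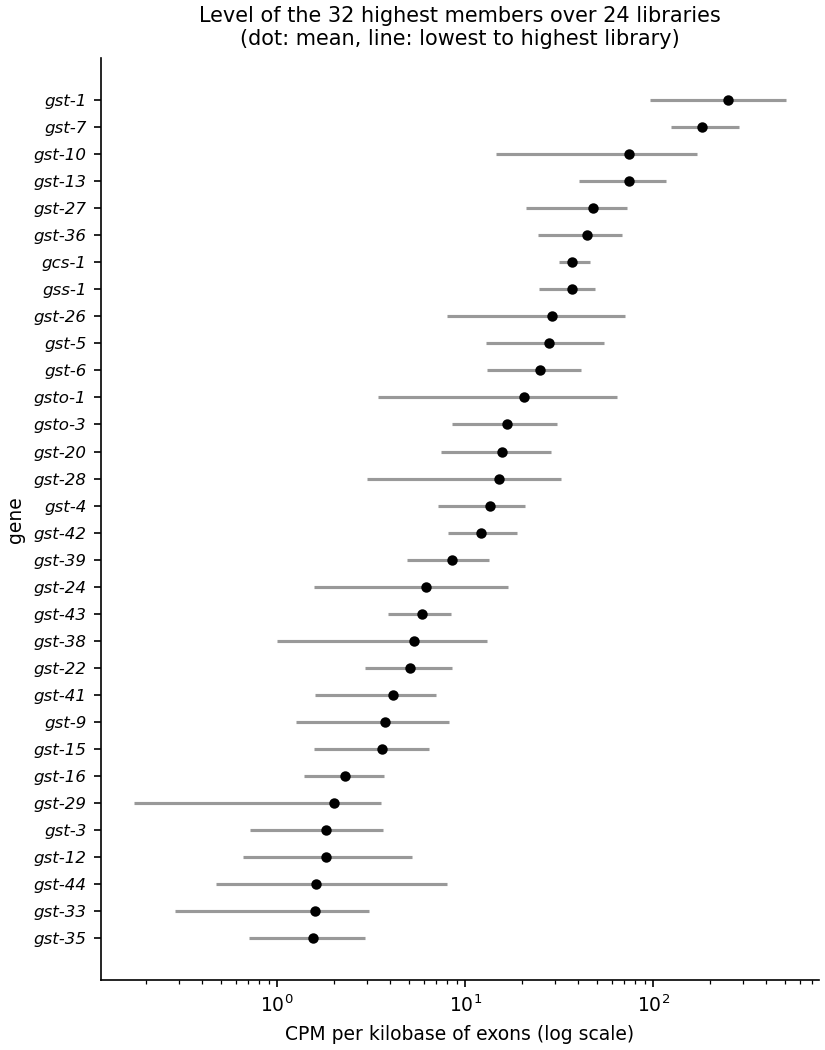
Mean level (dot) of the 32 highest members in CPM per kilobase of exons on a log axis, with a line from the lowest to the highest of the 24 libraries. The means fall from 250.7 for *gst-1* to 1.54 for *gst-35*, and the line of *gcs-1* is short beside those of *gst-10*, *gsto-1* and *gst-38*.

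A gene entered the test of an exposure with 350 or more counts over its 6 libraries. The number of members that reached this was 25, 27, 27 and 30 in exposures 1 to 4, and 25 members reached it in all 4. A further 7 members passed in some exposures: *gst-3*, *gst-12*, *gst-16*, *gst-21*, *gst-29*, *gst-33* and *gst-44*. The members nearest to the limit were *gst-15* (388 counts) and *gst-35* (318) in exposure 1, *gst-29* (375) and *gst-40* (312) in exposure 2, *gst-44* (353) and *gst-16* (343) in exposure 3, and *gst-3* (355) and *gst-29* (349) in exposure 4. The other 17 members, *gst-2*, *gst-8*, *gst-11*, *gst-14*, *gst-17*, *gst-18*, *gst-19*, *gst-23*, *gst-25*, *gst-30*, *gst-31*, *gst-32*, *gst-34*, *gst-35*, *gst-37*, *gst-40* and *gsto-2*, passed in none. Their counts over all 24 libraries summed to between 46 and 977, and the highest of their mean levels was 1.54 CPM per kilobase. A response of these genes was not tested in the main fits. Only alternatives with other filters took in some of them, at these low counts.

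The summed level of the 49 members was higher in every hypoxia library than in any normoxia library in exposures 2 and 3. In exposure 2 the normoxia libraries summed to 592, 564 and 534 CPM and the hypoxia libraries to 1110, 1149 and 1136 CPM. In exposure 3 the sums were 665, 836 and 672 CPM in normoxia and 1244, 1172 and 1175 CPM in hypoxia. With 3 libraries against 3 the smallest p of an exact two-sided permutation test is 0.1. Exposure 4 had 684, 833 and 845 CPM in normoxia and 865, 907 and 848 CPM in hypoxia, groups that nearly touched without overlapping. Exposure 1 had 786, 583 and 559 CPM in normoxia and 616, 1066 and 650 CPM in hypoxia, and the groups overlapped. The highest library on each side of exposure 1 was the one that stood apart across all genes. The sum is weighted toward abundant members and does not count how many rose. In exposure 2 the mean went from 76.3 to 276 CPM for *gst-1*, from 12.9 to 116 CPM for *gst-10* and from 102 to 182 CPM for *gst-7*. In exposure 4 it went from 154 to 222 CPM for *gst-1* and from 9.29 to 48.5 CPM for *gsto-1*. In these exposures 2 and 9 members were called down.

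**Figure D2:**
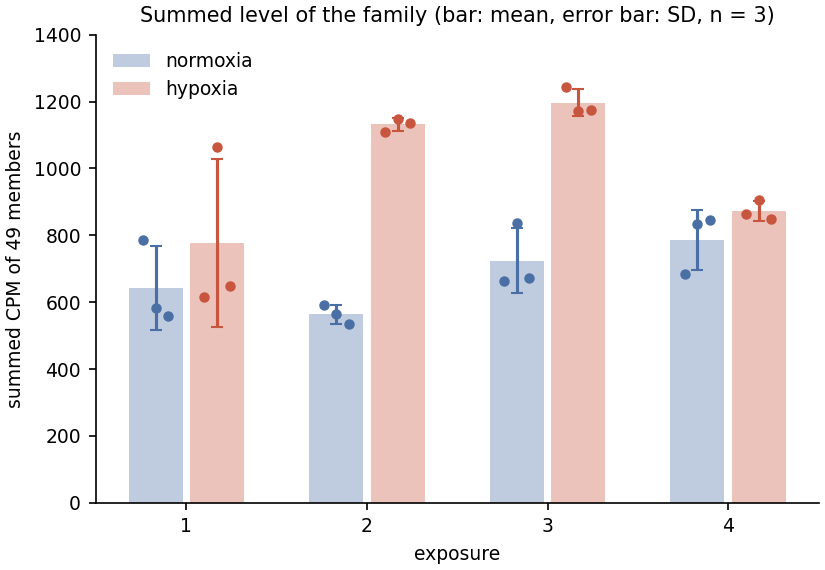
Summed CPM of the 49 members per library (dots), with the mean (bar from 0) and SD (error bar, n = 3) of each group at exposures 1 to 4. Hypoxia means were 777, 1132, 1197 and 873 CPM against normoxia means of 642, 563, 724 and 787 CPM.

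Hypoxia was compared with normoxia separately for every exposure with the quasi-likelihood test of edgeR, and a gene was called when its p, adjusted by Benjamini-Hochberg over all genes tested, was under 0.05. In exposure 1, 1 member of 25 rose (*gsto-1*) and none fell, where 20.7% of all genes tested were called, 13.3% up and 7.40% down. At an unadjusted p under 0.05, 4 members were higher and 4 lower in exposure 1 (19.5% and 15.9% of all genes), and DESeq2 called 2 up and 4 down (16.9% and 11.3%). In exposure 2, 19 of 27 members rose and 2 fell, where 73.5% of all genes were called, 37.2% up and 36.3% down. In exposure 3, 10 of 27 rose and 3 fell, against a background of 30.1%, 12.4% up and 17.7% down. In exposure 4, 10 of 30 rose and 9 fell, against 50.1%, 27.1% up and 23% down. The share of members that rose was above that of all genes in exposures 2 and 3. In exposure 4 the shares that rose and fell both lay near those of all genes, and in exposure 1 the order depended on the libraries and the tool. Among the 25 members tested in all 4 exposures, 1, 18, 10 and 9 rose and 0, 1, 2 and 7 fell. The remaining calls belong to *gst-3*, *gst-12*, *gst-29*, *gst-33* and *gst-44*, which passed the count limit in those exposures mainly through the group in which they were higher, so that their differences are a description. Over the 25 members the median log2 fold changes were 0.11, 0.95, 0.29 and −0.01.

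The median log2 fold change of the members tested was 0.11, 0.95, 0.22 and −0.02 in exposures 1 to 4, beside −0.02, −0.01, 0.03 and 0.00 for all genes tested. Counting instead the members whose hypoxia libraries all lay on one side of the normoxia libraries gave 5 above and 3 below in exposure 1 (20.6% and 19.7% of all genes), 18 and 2 in exposure 2 (38.6% and 38.5%), 10 and 5 in exposure 3 (23.6% and 23.5%), and 10 and 9 in exposure 4 (31.4% and 29.1%). Of the 32 members tested at least once, 29 were called in some exposure, beside 85.3% of all genes tested at least once, and *gcs-1*, *gst-16* and *gst-21* were called in none. No member rose in all 4 exposures. The members that rose in exposures 2, 3 and 4 were *gst-1*, *gst-4* and *gst-13*, and *gst-41* fell in the same 3. These are 3 of the 19 that rose in exposure 2, beside 16.1% of all genes that did. Of the 19 that rose in exposure 2, 9 rose in exposure 3 too, where 22.4% of all genes up in exposure 2 did. In exposure 4, 7 of these 19 rose, 4 fell, 7 were not called and 1 was not tested, beside 48.4%, 11.3%, 32.7% and 7.62% of all genes up in exposure 2.

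**Figure D3:**
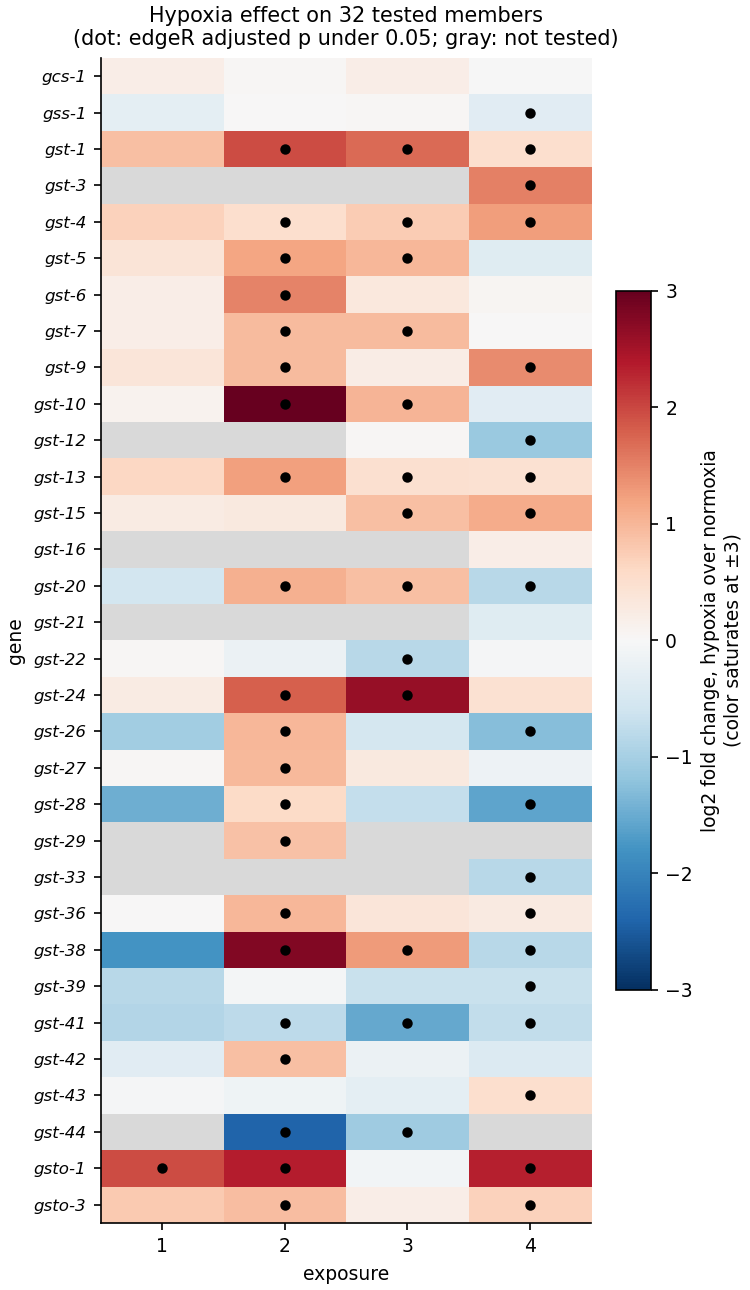
Log2 fold change of hypoxia over normoxia for the 32 tested members (rows) at exposures 1 to 4 (columns), red for higher and blue for lower in hypoxia. A dot marks an edgeR adjusted p under 0.05 and gray marks a gene with under 350 counts. The column of exposure 2 holds 19 red and 2 blue dotted cells, that of exposure 4 holds 10 and 9.

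Doubt about exposure 1 bears on every member. Normoxia replicate 1 was the highest of its 3 libraries in 20 of 25 members, where 34.9% of all genes were highest in it, and hypoxia replicate 2 was the highest in 14 of 25, where 41.9% of all genes were. With both left out, a choice made after seeing the data, 9 members rose and 6 fell: *gst-1*, *gst-4*, *gst-5*, *gst-13*, *gst-24*, *gst-27*, *gsto-1*, *gsto-3* and *gcs-1* were higher in hypoxia, and *gst-10*, *gst-26*, *gst-28*, *gst-38*, *gst-41* and *gss-1* were lower. Over all genes the same step raised the calls to 3682 up (28%) and 3194 down (24.3%) from 1752 and 975.

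The 2 enzymes of glutathione synthesis had small fold changes. The level of *gcs-1* was 93.3, 83.6 and 86.4 CPM in normoxia and 108, 97.4 and 94.1 CPM in hypoxia in exposure 1, and 93.2, 91.8 and 90.2 against 90.8, 86.7 and 84.6 CPM in exposure 2. Its levels were 74.3, 78.3 and 81.7 CPM in normoxia and 88.8, 93.8 and 87.8 CPM in hypoxia in exposure 3, and 75.7, 78.0 and 78.0 against 81.8, 80.3 and 73.7 CPM in exposure 4. The groups did not overlap in exposures 1 and 3, with hypoxia higher. Its log2 fold changes were 0.20 ± 0.10, 0.03 ± 0.05, 0.21 ± 0.07 and −0.01 ± 0.06 (± SE here and below), and no adjusted p of the separate edgeR fits was under 0.05 (0.19, 0.57, 0.060 and 0.86). In the fit of all 24 libraries *gcs-1* was called up in exposures 1 and 3 (adjusted p = 0.017 and 0.011), and without ribosomal RNA genes in exposure 3 (0.049). The log2 fold changes of *gss-1* were −0.29 ± 0.18, 0.02 ± 0.06 and 0.03 ± 0.10 in exposures 1 to 3, none called, though without hypoxia replicate 2 the exposure 1 value was −0.50 and passed (adjusted p = 0.023). In exposure 4 it went from 69.0, 77.9 and 79.9 CPM in normoxia to 63.3, 63.1 and 59.3 CPM in hypoxia (−0.33 ± 0.07, adjusted p = 0.0047), a call that was lost in the fit of all 24 libraries (adjusted p = 0.070).

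The 2 most abundant transferases, *gst-1* and *gst-7*, rose together in exposures 2 and 3. For *gst-1* the normoxia libraries of exposure 2 were at 84.1, 73.1 and 71.7 CPM and the hypoxia libraries at 271, 282 and 276 CPM, and in exposure 3 they were at 104, 123 and 98.6 against 381, 337 and 334 CPM. In exposure 4 the levels were 138, 156 and 167 CPM in normoxia and 215, 230 and 222 CPM in hypoxia. The groups were apart in all 3 exposures, by 1.96 ± 0.07, 1.69 ± 0.10 and 0.49 ± 0.07 on the log2 scale (edgeR adjusted p = 6.3e-09, 4.9e-05 and 0.00072). The exposure 4 call was lost in the fit of all 24 libraries (adjusted p = 0.084). Exposure 1 had 126, 106 and 98.6 CPM in normoxia and 129, 347 and 136 CPM in hypoxia, and the difference of 0.90 ± 0.38 did not pass (adjusted p = 0.15). In the fit of all 24 libraries the exposure 1 difference did pass (0.89, edgeR adjusted p = 0.0053). The hypoxia mean of *gst-1* in exposure 1 rests on replicate 2, without which the log2 fold change was 0.29 (edgeR adjusted p = 0.13).

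For *gst-7* the hypoxia libraries were at 184, 186 and 176 CPM in exposure 2 and at 213, 205 and 203 CPM in exposure 3, above normoxia libraries at 106, 107 and 92.6 CPM and at 107, 101 and 113 CPM. The rise was 0.95 ± 0.07 in both (edgeR adjusted p = 5.8e-07 and 9.4e-05). In exposure 4 the groups overlapped, with 110.4, 124.1 and 118.7 CPM in normoxia and 112, 135 and 120 CPM in hypoxia, a log2 fold change of 0.02 ± 0.08. In exposure 1, normoxia was at 118, 109 and 109 CPM and hypoxia at 97.9, 178 and 106 CPM, again with replicate 2 apart.

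The widest swing between exposures was that of *gst-10* and *gst-38*. The product of *gst-10* conjugates 4-hydroxynonenal, a toxic product of lipid peroxidation. In exposure 2 *gst-10* was at 12.5, 13.6 and 12.5 CPM in normoxia and at 103, 122 and 122 CPM in hypoxia, a rise of 3.27 ± 0.09 (edgeR adjusted p = 1.2e-09), the largest of any member in any exposure. In exposure 3 it was at 37.5, 75.4 and 27.1 CPM in normoxia and at 103, 96.0 and 87.2 CPM in hypoxia, a rise of 1.03 ± 0.32 (adjusted p = 0.045). The call of exposure 3 was lost under DESeq2 (adjusted p = 0.077) and under 9 other alternatives. In exposure 4 the groups overlapped, with 34.97, 68.23 and 65.08 CPM in normoxia and 48.2, 47.9 and 40.5 CPM in hypoxia (−0.34 ± 0.22, adjusted p = 0.24). Without normoxia replicate 1 that value was −0.59 and passed (adjusted p = 9.7e-05), as it did with no filter beyond 1 count (−0.37, adjusted p = 0.0055). Exposure 1 held 52.0, 16.0 and 13.5 CPM in normoxia and 10.5, 67.4 and 10.7 CPM in hypoxia, so that a single library was high on each side. There the log2 fold change was 0.11 ± 0.86, and −0.43 (adjusted p = 0.031) without these libraries.

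The gene *gst-38* rose in exposures 2 and 3 and fell in exposure 4. In exposure 2 it went from 1.49, 1.86 and 1.57 CPM in normoxia to 10.2, 10.6 and 10.6 CPM in hypoxia, a rise of 2.78 ± 0.15 (edgeR adjusted p = 8.7e-08). In exposure 3 normoxia was at 3.796, 5.311 and 3.335 CPM and hypoxia at 8.65, 10.2 and 11.2 CPM (1.27 ± 0.21, adjusted p = 0.0031). In exposure 4 it was at 3.01, 2.86 and 2.99 CPM in normoxia and at 1.28, 2.16 and 1.66 CPM in hypoxia, with a log2 fold change of −0.83 ± 0.20 (adjusted p = 0.0097, or 0.058 in the fit of all 24 libraries). All hypoxia libraries of exposure 1, at 0.847, 1.86 and 0.938 CPM, lay below all normoxia libraries, at 7.12, 2.57 and 2.95 CPM, with a log2 fold change of −1.80 ± 0.52 and an adjusted p of 0.0515. That value passed under DESeq2 (0.0063), under the fit of all 24 libraries (0.000217) and without hypoxia replicate 2 (0.025).

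**Figure D4:**
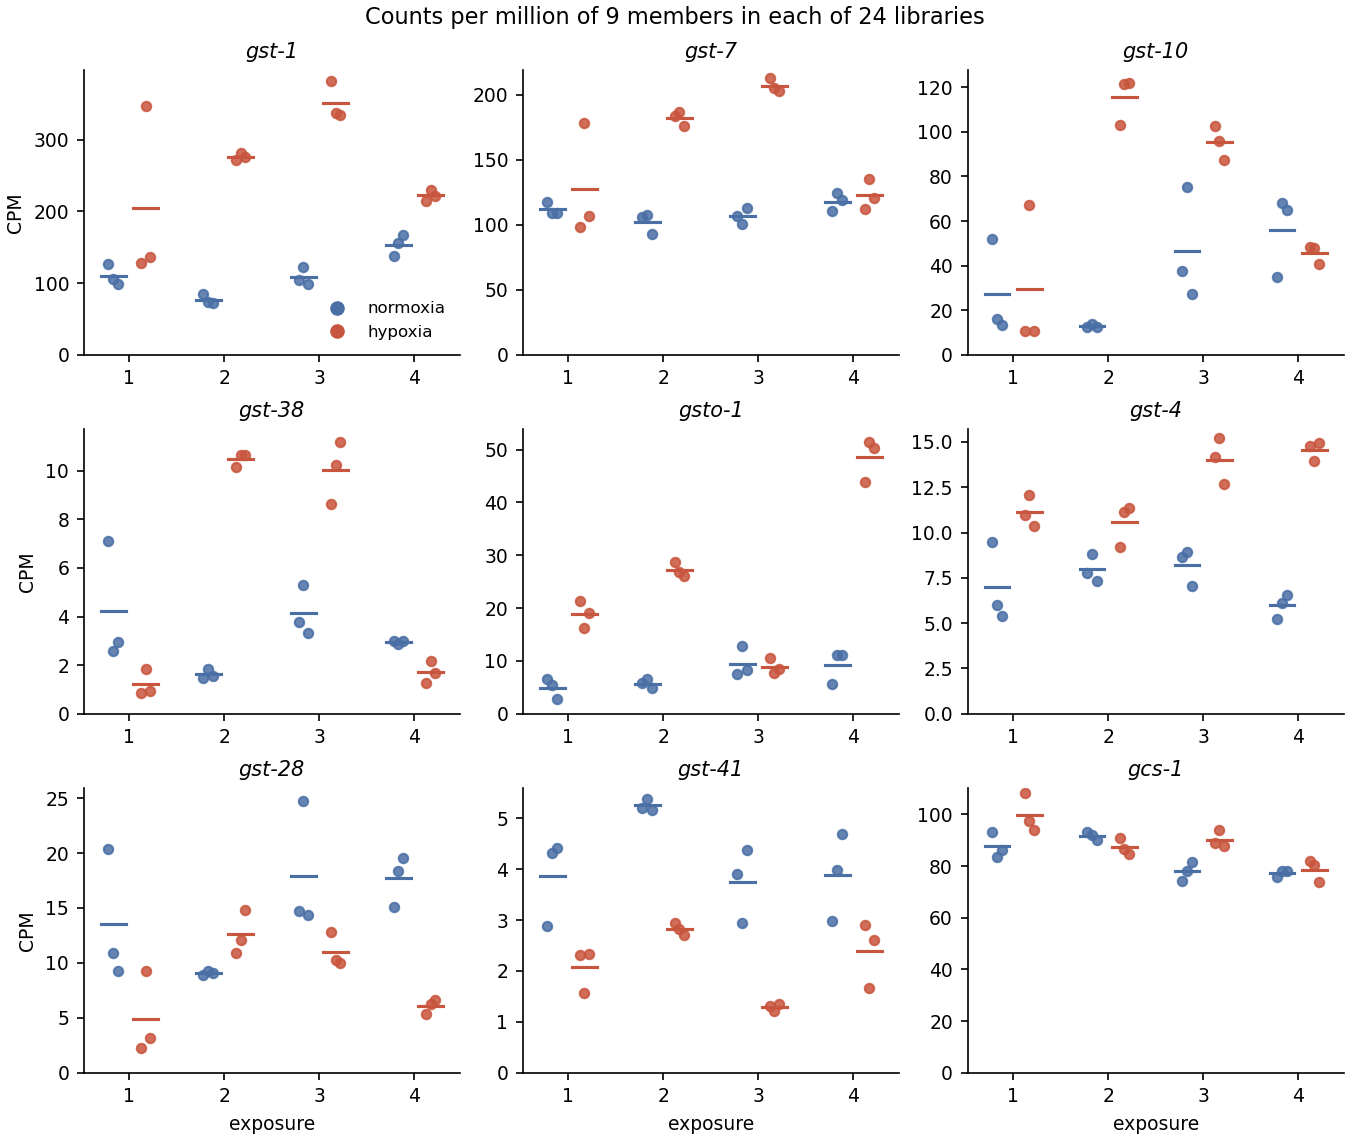
CPM of 9 members in each library at exposures 1 to 4, blue for normoxia and red for hypoxia, with a bar at the mean of each 3. Hypoxia libraries of *gst-10* and *gst-38* stand far above normoxia in exposure 2 and not in exposure 4, those of *gsto-1* reach 51.4 CPM in exposure 4, and *gcs-1* stays between 73.7 and 108 CPM throughout.

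A smaller rise recurred for *gst-4*, the gene behind the standard fluorescent reporter of SKN-1 activity, and for *gst-13*. In exposure 4 *gst-4* went from 5.22, 6.14 and 6.56 CPM in normoxia to 14.8, 13.9 and 14.9 CPM in hypoxia (1.24 ± 0.11, edgeR adjusted p = 7.6e-05). It rose by 0.51 ± 0.13 in exposure 2, from 7.75, 8.83 and 7.31 to 9.22, 11.1 and 11.3 CPM, and by 0.77 ± 0.14 in exposure 3, from 8.67, 8.91 and 7.07 to 14.2, 15.2 and 12.7 CPM (adjusted p = 0.0052 and 0.0058). In exposure 1 the groups were apart as well, at 9.499, 6.023 and 5.398 CPM in normoxia and 10.98, 12.05 and 10.34 CPM in hypoxia, but the difference of 0.68 ± 0.25 did not pass (adjusted p = 0.10). It passed without normoxia replicate 1 (1.02, adjusted p = 0.013) and in the fit of all 24 libraries (0.0028). The exons of *gst-4* and *dhs-12* share 65 bases on the same strand, and reads there could be counted on either gene.

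The level of *gst-13* rose by 1.24 ± 0.09, 0.49 ± 0.08 and 0.46 ± 0.09 in exposures 2, 3 and 4 (edgeR adjusted p = 6.25e-07, 0.0032 and 0.0048). Its hypoxia libraries were at 86.8, 86.1 and 90.9 CPM in exposure 2, against 45.6, 38.7 and 35.9 CPM in normoxia. In exposure 1, 46.1, 34.9 and 31.6 CPM in normoxia overlapped with 42.14, 76.99 and 53.99 CPM in hypoxia, and the value of 0.63 passed in the fit of all 24 libraries (edgeR adjusted p = 0.0043) and without the 2 libraries that stood apart.

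Among the gsto genes, *gsto-1* was the only member of the family called in exposure 1. Its levels there were 6.52, 5.37 and 2.77 CPM in normoxia and 21.3, 16.2 and 19.1 CPM in hypoxia, a rise of 1.96 ± 0.33 (edgeR adjusted p = 0.0068). In exposure 2 it went from 5.77, 6.50 and 4.83 CPM to 28.6, 26.8 and 26.0 CPM (2.36 ± 0.12, adjusted p = 7.5e-08), and in exposure 4 from 5.711, 11.04 and 11.11 CPM to 43.8, 51.4 and 50.3 CPM (2.34 ± 0.23, adjusted p = 9.8e-05). The groups were far apart in these 3 exposures. In exposure 3 they overlapped, at 7.45, 12.8 and 8.23 CPM in normoxia and 10.5, 7.79 and 8.45 CPM in hypoxia, with a log2 fold change of −0.09 ± 0.23. The transcript shares 52 exon bases with *kle-2* on the opposite strand, and whether the counting used strand was not stated. The second tested gsto gene, *gsto-3*, rose in exposures 2 and 4 by 0.93 ± 0.11 and 0.70 ± 0.11 (adjusted p = 3.6e-05 and 0.00097), and its values in exposures 1 and 3 were 0.78 ± 0.28 and 0.20 ± 0.19.

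Many members lie in tandem. With members joined when less than 10 kb apart, 25 of the 49 fell into 4 runs (WBcel235 coordinates). Run 1 holds *gst-6*, *gst-7*, *gst-8* and *gst-9* on chromosome II from 4879891 to 4893573. Run 2 holds 9 genes, *gst-20*, *gst-24*, *gst-15*, *gst-14*, *gst-12*, *gst-16*, *gst-19*, *gst-17* and *gst-18*, from 13608154 to 13630887 on the same chromosome, and run 3 holds another 9, *gst-26*, *gst-27*, *gst-28*, *gst-29*, *gst-39*, *gst-31*, *gst-32*, *gst-34* and *gst-35*, from 15163817 to 15185389. Run 4 holds *gst-3*, *gst-2* and *gst-4* on chromosome IV from 10139380 to 10143099. Neighbors of like sequence can share reads, and how the counting treated reads with several matches was not stated, so genes of a run are not independent. In run 2, *gst-17* and *gst-18* share 351 exon bases on the same strand, and both stayed under the count limit.

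Within run 3, 4 of 5 tested genes rose (3 of 4 without *gst-29*) and none fell in exposure 2, where 37.2% of all genes rose, and 3 of 4 fell and none rose in exposure 4, where 23% fell. The genes *gst-26* and *gst-28* were called up in exposure 2 and down in exposure 4. The level of *gst-28* went from 8.88, 9.27 and 9.11 CPM in normoxia to 10.9, 12.1 and 14.8 CPM in hypoxia in exposure 2 (0.58 ± 0.13, edgeR adjusted p = 0.0026). In exposure 4 it went from 15.1, 18.4 and 19.6 CPM to 5.31, 6.24 and 6.58 CPM (−1.59 ± 0.13, adjusted p = 5.2e-05). For *gst-26* the change was 1.00 ± 0.14 in exposure 2 and −1.28 ± 0.20 in exposure 4 (adjusted p = 8.0e-05 and 0.0011), with 22.9, 36.1 and 40.2 CPM in normoxia and 12.4, 16.0 and 13.7 CPM in hypoxia in exposure 4. The exposure 2 calls of *gst-26* and *gst-28* were lost in the fit of all 24 libraries (adjusted p = 0.078 and 0.25). In exposures 1 and 3 the log2 fold changes were −1.04 ± 0.59 and −0.53 ± 0.38 for *gst-26* and −1.47 ± 0.57 and −0.70 ± 0.23 for *gst-28*, none called. The exposure 3 value of *gst-26* rests on normoxia replicate 2, at 48.8 CPM beside 18.45 and 17.04 CPM, and was 0.14 without it. For *gst-28* the exposure 1 value passed under DESeq2 (0.034), in the fit of all 24 libraries (0.0031) and without hypoxia replicate 2 (−2.30, adjusted p = 0.0093), and the exposure 3 value passed under DESeq2 (0.014), with upper-quartile scaling (0.049) and without normoxia replicate 3 (0.042).

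Beside them, *gst-27* rose in exposure 2 (0.98 ± 0.09). It also passed in exposure 3 without normoxia replicate 2 (0.64, edgeR adjusted p = 0.0037) and in exposure 4 without normoxia replicate 1 (−0.33, adjusted p = 0.0030). The level of *gst-29* was tested in exposure 2 alone (0.89 ± 0.33, adjusted p = 0.032), where 253 of its 375 counts came from the hypoxia libraries, so that its place in the test depended on the group in which it was high. The gene *gst-39* fell in exposure 4 only (−0.67 ± 0.17, adjusted p = 0.011).

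In run 2, *gst-20* rose in exposures 2 and 3 (1.07 ± 0.11 and 0.91 ± 0.28) and fell in exposure 4 (−0.84 ± 0.20, edgeR adjusted p = 0.0098). In exposure 3 its groups overlapped (edgeR adjusted p = 0.044). The exposure 3 call of *gst-20* was lost without any of 4 single libraries, with upper-quartile scaling (0.062) and without ribosomal RNA genes (0.051). Its exposure 2 levels were 9.11, 10.7 and 11.2 CPM in normoxia and 20.0, 21.3 and 19.2 CPM in hypoxia, and its exposure 4 levels 11.03, 20.02 and 17.48 CPM against 8.81, 10.1 and 9.06 CPM. Its neighbor *gst-24* rose in exposures 2 and 3 by 1.80 ± 0.20 and 2.62 ± 0.33 (adjusted p = 2.0e-05 and 0.0010), in exposure 3 from 1.30, 2.61 and 1.16 CPM to 7.791, 11.03 and 12.42 CPM, and had 0.46 ± 0.34 in exposure 4, or 0.91 without normoxia replicate 2 (adjusted p = 0.029). The next gene, *gst-15*, rose in exposures 3 and 4 (0.89 ± 0.26 and 1.10 ± 0.20, adjusted p = 0.032 and 0.0023), and its exposure 3 call was lost without any of 4 single libraries. The gene *gst-12* fell in exposure 4 (−1.12 ± 0.34, adjusted p = 0.025), with 1.92, 4.501 and 2.54 CPM in normoxia and 1.34, 1.78 and 1.12 CPM in hypoxia. That call was lost without normoxia replicate 2 and without hypoxia replicate 1 or 3 (adjusted p = 0.064, 0.074 and 0.092). In run 1, *gst-6* rose in exposure 2 (1.49 ± 0.11, adjusted p = 8.6e-07), from 12.66, 11.47 and 9.998 CPM to 27.5, 30 and 31.6 CPM, and passed in exposure 3 without hypoxia replicate 2 alone (0.44, adjusted p = 0.041). The last gene of that run, *gst-9*, rose in exposures 2 and 4 (0.95 ± 0.21 and 1.42 ± 0.31).

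**Figure D5:**
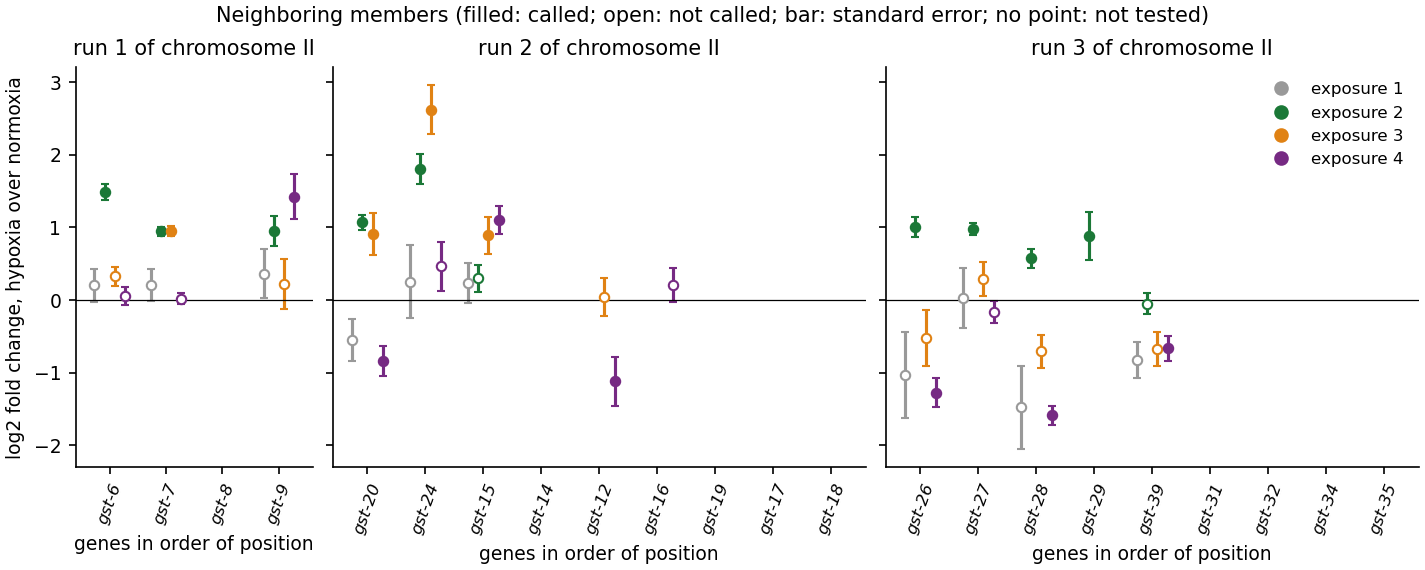
Log2 fold change ± SE of hypoxia over normoxia for the genes of runs 1, 2 and 3, in order along the chromosome, with exposures 1 to 4 in gray, green, orange and purple (filled when called). In run 3 the green points of 4 genes lie above 0 and the purple points of all 4 tested genes lie below it, 3 of them filled.

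The members called in opposite directions in the separate fits were *gst-20*, *gst-26*, *gst-28* and *gst-38*, all of them up in exposure 2 and down in exposure 4. Their normoxia levels also differed between these exposures: the means were 10.4 and 16.2 CPM for *gst-20*, 12.2 and 33.0 CPM for *gst-26*, 9.09 and 17.7 CPM for *gst-28*, and 1.64 and 2.96 CPM for *gst-38* in exposures 2 and 4. The normoxia mean of *gst-10* was 12.9 CPM in exposure 2 and 56.1 CPM in exposure 4. Its hypoxia mean was 116 CPM and then 45.5 CPM. A lower fold change in exposure 4 thus came with a higher normoxia level and a lower hypoxia level in *gst-10*, *gst-20*, *gst-26*, *gst-28* and *gst-38*. In the test of normoxia levels over the 4 exposures, *gst-20* and *gst-28* did not pass (edgeR adjusted p = 0.068 and 0.081).

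The gene *gst-41* was at 5.20, 5.38 and 5.17 CPM in normoxia and at 2.94, 2.83 and 2.71 CPM in hypoxia in exposure 2 (−0.79 ± 0.15, edgeR adjusted p = 0.00077). It was at 3.91, 2.94 and 4.38 CPM against 1.30, 1.22 and 1.36 CPM in exposure 3 (−1.52 ± 0.23, adjusted p = 0.0021), and it fell in exposure 4 too (−0.74 ± 0.25, adjusted p = 0.036), where the call was lost without any of 4 single libraries. In exposure 1 its log2 fold change was −0.87 ± 0.27 (adjusted p = 0.065), which passed under DESeq2 (0.026), in the fit of all 24 libraries (0.0029) and without normoxia replicate 1 (−1.02, adjusted p = 0.047). For *gst-44* the fall in exposure 2 was −2.40 ± 0.66 (adjusted p = 0.0073), from 8.15, 1.56 and 1.40 CPM to 0.633, 0.584 and 0.729 CPM, and without normoxia replicate 1 it was −1.08 (adjusted p = 0.0036). It passed the count limit through normoxia, with 341 of 414 counts there in exposure 2 and 248 of 353 in exposure 3. The other falls of exposure 3, *gst-44* (−1.07 ± 0.32) and *gst-22* (−0.84 ± 0.27), had adjusted p of 0.039 and 0.047. Only *gst-41* remained called down in exposure 3 without normoxia replicate 1, and likewise without hypoxia replicate 1 or 2.

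Of the members called in exposure 4 alone, *gst-3* and *gst-33* were tested in no other. The level of *gst-3* was low in both groups, at 0.559, 0.684 and 1.18 CPM in normoxia and 2.62, 2.59 and 1.97 CPM in hypoxia (1.52 ± 0.29, edgeR adjusted p = 0.0029). Of its 355 counts 244 came from hypoxia, and of the 380 counts of *gst-33* 264 came from normoxia, so that both passed the limit through the group in which they were high. The gene *gst-43* rose (0.51 ± 0.14, adjusted p = 0.017, or 0.068 without hypoxia replicate 3), and *gst-33* fell (−0.83 ± 0.30, adjusted p = 0.045). The zeta-class member *gst-42*, whose relatives act as maleylacetoacetate isomerases in tyrosine breakdown, rose in exposure 2, from 11.8, 9.57 and 10.1 CPM to 18.83, 19.05 and 16.77 CPM (0.90 ± 0.11, adjusted p = 4.2e-05). Its values elsewhere were −0.35 ± 0.24, −0.18 ± 0.15 and −0.40 ± 0.15 in exposures 1, 3 and 4. The exposure 4 value passed with the replicate block (−0.39, adjusted p = 0.030), under DESeq2 (0.028) and without normoxia replicate 1 (−0.55, adjusted p = 0.0015). The remaining members called were *gst-5*, up in exposures 2 and 3 (1.18 ± 0.13 and 0.99 ± 0.14) and with −0.36 in exposure 4, which passed under DESeq2 (adjusted p = 0.034) and without normoxia replicate 1 (−0.52, adjusted p = 0.00035), and *gst-36*, up in exposures 2 and 4 (1.00 ± 0.07 and 0.27 ± 0.08). The exons of *gst-36* overlap those of *scav-5* on the opposite strand by 93 bases.

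Whether the response of a member differed between exposures was tested in a single fit of all 24 libraries, over the 25 members that passed the count limit in all 4 exposures. This fit shares one estimate of the spread, and on its common scale the median gene had a log2 fold change of −0.126 in exposure 2, where the separate fit had −0.01, so its differences are to be read against that shift. The effect differed between any of the exposures for 17 members of 25, beside 68.2% of 12517 genes. The smallest p-values belonged to *gst-38*, *gsto-1*, *gst-6* and *gst-5* (edgeR adjusted p = 1.1e-06, 4.9e-05, 0.00027 and 0.00032).

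The effect in exposure 2 differed from that in exposure 1 for 11 of the 25 members, beside 34.8% of all genes. It was higher in 10 of them (13.4% of all genes were higher) and lower in *gcs-1* (21.4%). The largest difference was 4.48 ± 0.47 for *gst-38* (edgeR adjusted p = 3.3e-06), followed by 3.05 ± 0.82 for *gst-10* (0.0073). For *gst-6*, *gst-42* and *gst-20* it was 1.20 ± 0.23, 1.15 ± 0.25 and 1.53 ± 0.38 (0.00069, 0.0016 and 0.0041). The difference of −0.26 ± 0.09 for *gcs-1* (adjusted p = 0.025) is small beside these. Without hypoxia replicate 1 of exposure 1 the test called 7 members, and without normoxia replicate 3 of exposure 1 it called 16. For *gsto-1* the effects of exposures 1 and 2 differed by 0.31 ± 0.37 and for *gst-4* by −0.26 ± 0.23, neither called.

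The effect in exposure 4 differed from the mean effect of exposures 1 to 3 for 9 of the 25 members, beside 19.7% of all genes. It was lower in 6 (4.57% of all genes were lower) and higher in 3 (15.1%). The lower ones were *gst-38* by −1.51 ± 0.37, *gst-20* by −1.23 ± 0.30, *gst-5* by −1.13 ± 0.21, *gst-1* by −0.95 ± 0.28, *gst-7* by −0.60 ± 0.17 and *gst-6* by −0.54 ± 0.19 (edgeR adjusted p between 0.00088 and 0.047). The higher ones were *gsto-1* by 1.01 ± 0.30, *gst-43* by 0.74 ± 0.18 and *gst-4* by 0.67 ± 0.19. For *gst-10* the difference was −1.74 ± 0.65 (adjusted p = 0.067). Without normoxia replicate 1 of exposure 1, 15 members were called.

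Normoxia levels themselves differed between the 4 exposures for 15 of 25 members, beside 54% of all genes, and exposure and culture cannot be told apart here. The smallest p-values were those of *gst-15*, *gst-6*, *gcs-1* and *gst-13* (edgeR adjusted p = 0.00076, 0.0026, 0.0032 and 0.0033). Mean normoxia levels of *gst-13* in exposures 1 to 4 were 37.5, 40.1, 60.6 and 39.9 CPM, and those of *gst-15* were 1.88, 3.37, 2.06 and 1.42 CPM. For *gst-6* they were 14.5, 11.4, 19.4 and 18.1 CPM and for *gcs-1* 87.8, 91.7, 78.1 and 77.2 CPM. The order of the exposures thus differed from gene to gene.

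Other genes of glutathione metabolism were followed as a list of 18 genes: the kappa-class transferases, glutathione reductase, glutathione peroxidases, glutaredoxins and related enzymes. Counts of those that rose and fell were 1 and 1 of 15 tested in exposure 1, 8 and 2 of 16 in exposure 2, 8 and 2 of 16 in exposure 3, and 2 and 5 of 16 in exposure 4. The shares of all genes that rose and fell were 13.3% and 7.40%, 37.2% and 36.3%, 12.4% and 17.7%, and 27.1% and 23%, and they hold for the next lists too. The median log2 fold changes of the list were 0.09, 0.35, 0.41 and −0.06, beside −0.02, −0.01, 0.03 and 0.00 for all genes. Glutathione reductase, *gsr-1*, which returns oxidized glutathione to its reduced form, rose in exposures 2 and 3 (0.92 ± 0.06 and 0.48 ± 0.07) and had 0.24 ± 0.09 and 0.00 ± 0.06 in exposures 1 and 4. The kappa-class gene *gstk-1* fell in exposure 1 (−0.66 ± 0.14), rose in exposures 2 and 3 (1.13 ± 0.15 and 0.47 ± 0.08) and fell in exposure 4 (−0.34 ± 0.10).

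Of 11 regulators of the SKN-1 response, 1, 2, 3 and 3 rose and 0, 2, 0 and 2 fell in exposures 1 to 4. The transcript of *skn-1* itself had log2 fold changes of 0.05 ± 0.09, 0.00 ± 0.05, 0.07 ± 0.06 and 0.02 ± 0.05, none called. The kinase *sek-1*, which acts upstream of the p38 kinase PMK-1, rose in all 4 (0.83 ± 0.12, 0.77 ± 0.08, 0.57 ± 0.08 and 0.69 ± 0.08). Of 6 other SKN-1-dependent genes, 1, 4, 0 and 3 rose and 0, 1, 1 and 0 fell. Of the 8 mrp genes, ABC transporters of the kind that export glutathione conjugates, 2, 5, 2 and 4 rose and 0, 2, 0 and 1 fell, with *mrp-2* up in exposures 2 to 4 (1.41 ± 0.11, 0.61 ± 0.17 and 0.38 ± 0.10).

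Markers of tissues moved in the same libraries, and their part in the results above was not tested. All 3 muscle markers rose in exposure 2, their summed level lying between 2930 and 3594 CPM in normoxia and between 6855 and 6987 CPM in hypoxia, and none was called in the other exposures. All 5 germline and oocyte markers fell in exposures 2 and 4 (summed 2495 to 2671 CPM in normoxia and 1380 to 1722 CPM in hypoxia in exposure 2, and 3274 to 3556 against 2820 to 2859 CPM in exposure 4). Sperm markers rose in exposures 1, 2 and 4, 3 of 3, 4 of 4 and 3 of 4 tested. Of the 5 intestine markers, 3 rose and 2 fell in exposure 2, 3 fell in exposure 3 and 2 rose in exposure 4, and the summed level was 293 to 331 CPM in normoxia and 363 to 400.5 CPM in hypoxia in exposure 2. The hypodermis markers fell in part in each exposure (1, 3, 3 and 3 of 4, with 1 rise in exposure 2). That rise was large, 3.76 ± 0.08 for *rol-6* (edgeR adjusted p = 4.3e-10), and the same gene had −1.69 ± 0.34 in exposure 3 (adjusted p = 0.0073). Of the 4 neuron markers, 0, 1, 1 and 0 rose and 1, 2, 2 and 2 fell in exposures 1 to 4.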

How the data were processed

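Whole worms were sequenced as poly(A) RNA in directional libraries (24 libraries, 3 per group). The authors filtered reads at a quality score of 30, trimmed adapters with cutadapt 4.0, used Bowtie2 with the WS235 genome for alignment, and obtained counts per gene from featureCounts. Other versions, the strand setting and the handling of reads with several matches are not given in the sources used here. The deposited table holds raw counts for 46926 genes, without normalization. The authors' 4 tables of DESeq2 fold changes, standard errors, Wald statistics and p-values were not used.

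Genes were named from the Ensembl annotation of WBcel235, which holds all 46926 identifiers. The members and all lists were chosen with earlier results of these data known. Within each exposure, genes with at least 350 counts over 6 libraries were tested in R 4.3.3 with edgeR 4.0.16 (TMM, glmQLFit, glmQLFTest) and called where the p, adjusted by Benjamini-Hochberg over every gene tested, was under 0.05, whatever the fold change. A fit of all 24 libraries gave the differences between exposures and the CPM scale. The fold changes come from the separate fits and can differ from the ratio of mean CPM. Alternatives were DESeq2 1.42.0, upper-quartile scaling, other filters and thresholds, a replicate block, exclusion of 22 ribosomal RNA genes, each library left out, and 2 libraries of exposure 1 left out together. Leaving out libraries did not change the genes tested.

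Named members followed a rule: *gcs-1*, *gss-1*, *gst-1*, *gst-4*, *gst-10*, *gst-42* and *gsto-1*, the 5 largest called rises and falls per exposure with groups apart, the 5 highest levels, the 4 smallest p of each test between exposures, members called both ways, members never tested, and list genes called alike in all 4 exposures. Other genes were named after their values were seen. On simulated data with 200 changed genes (log2 fold change of 1.5 either way), the separate fits called 150, 190, 181 and 192 of them in exposures 1 to 4. In the same order, 9, 26, 16 and 17 unchanged genes were called as well, the most in exposure 2. The simulation changed far fewer genes than were called in the data (20.7%, 73.5%, 30.1% and 50.1% in exposures 1 to 4). It also drew each gene on its own, without libraries that stand apart across genes, so recovery in the data may differ. Replicates of a group differed by more than counting noise, and all were kept. The precision is set by 3 replicates, not by depth, except for the members under the count limit.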

Additional observations from a re-analysis of the deposited data

Results flagged for a closer look

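The values here are differences in the log2 effect of hypoxia between exposures, from the fit of all 24 libraries, that passed an edgeR adjusted p under 0.05. No cause was tested. The number of members whose effect differed between any of the 4 exposures was 17 of 25, a share like the 68.2% of all genes.

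Between exposures 2 and 1 the effect differed by 4.48 for *gst-38*, 3.05 for *gst-10*, 1.95 for *gst-28*, 1.94 for *gst-26*, 1.53 for *gst-20*, 1.20 for *gst-6*, 1.15 for *gst-42*, 0.97 for *gst-1*, 0.69 for *gst-5*, 0.65 for *gst-7* and −0.26 for *gcs-1*. In exposure 1, normoxia replicate 1 and hypoxia replicate 2 were the highest libraries of their groups for all of these except *gst-20* and *gcs-1*.

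Between exposure 4 and the mean of exposures 1 to 3 it differed by −1.51 for *gst-38*, −1.23 for *gst-20*, −1.13 for *gst-5*, −0.95 for *gst-1*, −0.60 for *gst-7*, −0.54 for *gst-6*, 0.67 for *gst-4*, 0.74 for *gst-43* and 1.01 for *gsto-1*. Both comparisons use exposures 1 and 2 and are not independent of each other.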

How the results depend on the processing

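Of 93 combinations of an exposure and a member named by the rule, 47 were called. None of the 47 turned direction under any alternative that gave it a value (43 had one in the fit of all 24 libraries). When the log2 fold change also had to reach 1 either way, 21 were lost. Under the other alternatives 13 were lost at least once, and 22 were lost under none. The counts of exposure 1 were the least stable. Members up in exposure 1 numbered 2 with DESeq2, 2 with no filter beyond 1 count, 4 at an unadjusted p under 0.05, 6 in a fit of all 24 libraries and 9 without the 2 libraries that stood apart. Members down there numbered 4 with DESeq2, 4 with no filter, 2 with at least 10 counts in every library, 4 unadjusted, 4 in the fit of all libraries and 6 without these 2 libraries, where *gst-10* turned to −0.43. Its value was 1.06 without normoxia replicate 1 alone and −1.34 without hypoxia replicate 2 alone. In exposure 2, members down numbered 5 with no filter, 4 with at least 10 counts in every library, 1 in the fit of all libraries and 1 when a doubling or halving was also asked for, which left 11 up. That minimum left 4 up in exposure 3, and 5 up and 3 down in exposure 4. Members down in exposure 3 numbered 5 with DESeq2, 6 with no filter and 5 unadjusted. The fit of all libraries called 7 up and 5 down in exposure 4, where over all genes it called 3112 up and 1585 down against 3644 and 3097 in the separate fit. Over all genes of exposure 1 it called 2745 up and 2836 down against 1752 and 975, where DESeq2 called 1485 down, an unadjusted p 2092 down and the replicate block 494 down. An unadjusted p gave 2532 up in exposure 3 against 1606. The minimum fold left 510 down in exposure 1 and 2585 and 1131, 390 and 1236, and 1406 and 351 up and down in exposures 2 to 4.

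With 1 library left out, members up ranged from 1 to 2, 18 to 19, 7 to 12 and 9 to 11 in exposures 1 to 4, and members down from 0 to 3, 2 to 2, 1 to 3 and 6 to 12. Over all genes the calls down in exposure 1 ranged from 332 to 2191 and the calls up in exposure 3 from 891 to 1604. The effect of exposure 2 minus exposure 1 was called for 7 to 16 members, that of exposure 4 against the mean of exposures 1 to 3 for 6 to 15, any difference in effect for 14 to 19 and normoxia levels for 10 to 19. Same-numbered libraries did not pair clearly: their deviations correlated between −0.31 and 0.30, over 0.1 in 2 of 12 pairs. In exposure 4 their correlations were small (0.068, 0.066 and 0.054) but above those of all differently numbered libraries, the highest of which was 0.033. With the replicate block the members up and down were 1 and 0, 19 and 2, 10 and 2, and 10 and 9 in exposures 1 to 4, and 9, 8, 15 and 15 members passed the 4 tests between exposures. The block lost the exposure 3 calls of *gst-44* (adjusted p = 0.077) and *gst-22* (0.065), and gained that of *gst-42* in exposure 4 (0.030). Planned groups by protein identity and promoter motifs were not run, since no sequences were used here. Depth limits the 17 members that passed no filter.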
